A study of Arabidopsis thaliana with 12 samples.

Results

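The major antenna of photosystem II in Arabidopsis thaliana is encoded by 9 nuclear genes, and their transcripts were followed in leaves under high light, heat and both together. The genes were taken by locus from the table of 32833 loci. They are the 5 copies of LHCB1 (LHCB1.1, AT1G29920; LHCB1.2, AT1G29910; LHCB1.3, AT1G29930; LHCB1.4, AT2G34430; LHCB1.5, AT2G34420), the 3 copies of LHCB2 (LHCB2.1, AT2G05100; LHCB2.2, AT2G05070; LHCB2.3, AT3G27690) and the single gene LHCB3 (AT5G54270). Of the 9 genes, 8 had enough reads to be tested and LHCB1.5 was listed at 0 in all 12 libraries. All groups were leaves of wild-type Col-0 aged 30 days, raised at 23 °C under 50 µmol m-2 s-1 with a 12 h day. The groups were 600 µmol m-2 s-1 and 42 °C together (high light and heat, or the combination), 600 µmol m-2 s-1 alone (high light), 42 °C alone (heat), each for 7 h, and untreated plants (control), with 3 libraries each. The temperature of the high light group and the light of the heat group are not given beyond this, and no source says how many plants stand behind a library, so the p-values cover the spread of the libraries, which may be technical.

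LHCB1, LHCB2 and LHCB3 proteins bind chlorophyll a and b and assemble as trimers (light-harvesting complex II) around the photosystem II core, where they collect light and pass its energy inward. LHCB1 is the most abundant of them, phosphorylation of LHCB2 is needed when trimers move between the photosystems, and LHCB3 sits in trimers close to the core. Leaves acclimated to strong light are known to keep smaller antennae, and the nuclear genes are known to respond to light, to the circadian clock and to signals from the chloroplast.

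The copies are close in sequence, which bears on how reads can be assigned to them. The first 60 coding bases of the 5 LHCB1 copies are shown because they let the copies be told apart at the start of the protein. They were read 5′ to 3′ on the coding strand from the TAIR10.1 genome and its RefSeq annotation, and capitals mark bases that differ from LHCB1.1.
LHCB1.1: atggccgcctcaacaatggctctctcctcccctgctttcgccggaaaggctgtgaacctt
LHCB1.2: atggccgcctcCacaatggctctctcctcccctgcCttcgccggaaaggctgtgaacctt
LHCB1.3: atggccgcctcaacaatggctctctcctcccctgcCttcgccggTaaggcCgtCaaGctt
LHCB1.4: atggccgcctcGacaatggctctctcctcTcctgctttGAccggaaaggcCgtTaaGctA
LHCB1.5: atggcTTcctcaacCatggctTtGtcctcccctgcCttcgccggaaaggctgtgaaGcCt
Over the whole coding sequence, copies of LHCB1 were 86.7% to 96.4% identical and copies of LHCB2 84.4% to 96.6%, whereas LHCB1 and LHCB2 shared 68.8% to 72.8%. Of the 100-base windows of the transcript, 1.51% to 12.4% occurred unchanged in another copy for the LHCB1 genes, LHCB2.1 and LHCB2.2, and of the 50-base windows 10.7% to 28.2% did. For LHCB2.3 and LHCB3 it was 0% at both lengths. The read length is not given in the sources used here. Values of single LHCB1 copies, LHCB2.1 and LHCB2.2 are therefore uncertain to the extent that reads were split or dropped. The sums over copies are given beside them. A sum does not depend on a split, but it would leave out dropped reads.

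Promoters of 4 genes are shown, chosen after the expression values had been seen, for the copies that changed the most (LHCB1.4 and LHCB2.3), the copy with the highest level (LHCB1.3) and a copy that shares a clock-related motif with LHCB1.4 (LHCB1.1). Each is the 250 bases before the annotated gene start in TAIR10.1. Capitals mark AAAAATCT, bound by the clock protein CCA1, CCAATC, which holds a CCAAT box, and the G-box CACGTG, bound by light-signalling factors. The LHCB1.1 window is chr1:10475970-10476219 on the minus strand, LHCB1.3 is chr1:10477635-10477884 on the plus strand, LHCB1.4 is chr2:14524357-14524606 on the plus strand, and LHCB2.3 is chr3:10255656-10255905 on the plus strand.
LHCB1.1: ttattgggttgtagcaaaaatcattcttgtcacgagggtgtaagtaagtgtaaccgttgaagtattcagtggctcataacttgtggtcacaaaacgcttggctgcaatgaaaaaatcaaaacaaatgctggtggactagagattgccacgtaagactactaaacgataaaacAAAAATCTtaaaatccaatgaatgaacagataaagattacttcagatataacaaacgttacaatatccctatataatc
LHCB1.3: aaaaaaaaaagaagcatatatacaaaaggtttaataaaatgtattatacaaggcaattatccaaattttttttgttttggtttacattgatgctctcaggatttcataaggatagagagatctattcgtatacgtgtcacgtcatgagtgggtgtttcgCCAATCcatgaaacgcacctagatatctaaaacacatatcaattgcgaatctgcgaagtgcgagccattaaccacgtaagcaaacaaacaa
LHCB1.4: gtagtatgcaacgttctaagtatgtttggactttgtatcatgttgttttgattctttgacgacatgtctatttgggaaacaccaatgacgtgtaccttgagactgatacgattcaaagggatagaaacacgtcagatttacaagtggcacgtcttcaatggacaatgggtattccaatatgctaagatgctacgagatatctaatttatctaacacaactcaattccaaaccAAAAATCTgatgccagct
LHCB2.3: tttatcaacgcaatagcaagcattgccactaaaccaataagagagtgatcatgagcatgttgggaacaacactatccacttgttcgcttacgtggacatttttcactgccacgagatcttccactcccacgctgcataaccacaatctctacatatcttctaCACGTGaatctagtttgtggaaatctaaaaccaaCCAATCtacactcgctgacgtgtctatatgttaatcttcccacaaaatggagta
Each motif was searched on both strands of the 9 promoters and of 27443 protein-coding promoters of the same length. AAAAATCT was in LHCB1.1, 78 to 71 bases before the gene start, and in LHCB1.4, 18 to 11 bases before it, against 6.69% of all promoters. CCAATC was in 5 of the 9 (LHCB1.3, LHCB1.5, LHCB2.1, LHCB2.2 and LHCB2.3), against 10.2% of all promoters. The G-box was in LHCB2.3 alone among the 9, against 6.49%, and the I-box GATAAG in LHCB2.1 alone, against 12.3%. A second CCA1-binding form, AACAATCT (1.83% of all promoters), and the evening element AAAATATCT (2.36%) were in none of the 9. The TATA box TATAAA was in 2 of the 9 (LHCB1.5 and LHCB3), against 47.35% of all promoters. Bases outside these windows were not searched. These matches describe letters in these windows and are not evidence of binding.

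Levels are the authors' normalised counts, in which each library's read counts were divided by its size factor. Each combination library held 29814116 to 32892194 recovered reads, each high light library 33626361 to 36768410, each heat library 34688170 to 36938786 and each control library 32799975 to 34206515. Size factors lay between 0.535 and 0.605 in the combination and between 1.05 and 1.53 in the other groups, although depth was similar. A change against the combination therefore depends on the scaling. With library totals in place of the deposited size factors, the median of all genes moved by -0.95 on the log2 scale in the combination against control, by -0.90 against high light, by -0.87 against heat and by -0.81 in the interaction. The leaf markers RBCS1A, RCA, CA1 and GAPA were high in all libraries, and the flower markers AG and AP3 together stayed at or below 33.5 normalised counts. Whether fewer cells of a type or less RNA per cell lies behind a value cannot be told apart in whole leaves.

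In control leaves the 9 genes together took 5.30% ± 0.561 of all reads (SD, n = 3). Levels of different genes were compared as normalised counts per kb of coding length. On that scale the group mean of LHCB1.3 was highest in all 4 groups, with 837350 ± 172382 per kb in control. The group mean of LHCB2.3 was the lowest of the detected genes in all 4, and LHCB1.5 was listed at 0. Between them in control came LHCB1.2 (272819 per kb), LHCB3 (228971), LHCB1.1 (194780), LHCB1.4 (182320), LHCB2.1 (56229) and LHCB2.2 (55081). The control libraries of LHCB1.2 and LHCB3, of LHCB3 and LHCB1.1, of LHCB1.1 and LHCB1.4, and of LHCB2.1 and LHCB2.2 overlapped. By group means LHCB3 moved up to the place behind LHCB1.3 in high light, and LHCB1.1 did so in the combination. In both cases the libraries overlapped those of LHCB1.2. The heat libraries of LHCB1.3 and LHCB1.2 also overlapped, and heat library 2 had 265509 per kb for LHCB1.3 and 327566 for LHCB1.2. In high light the libraries of LHCB2.3 and LHCB1.4 overlapped.

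**Figure D1:**
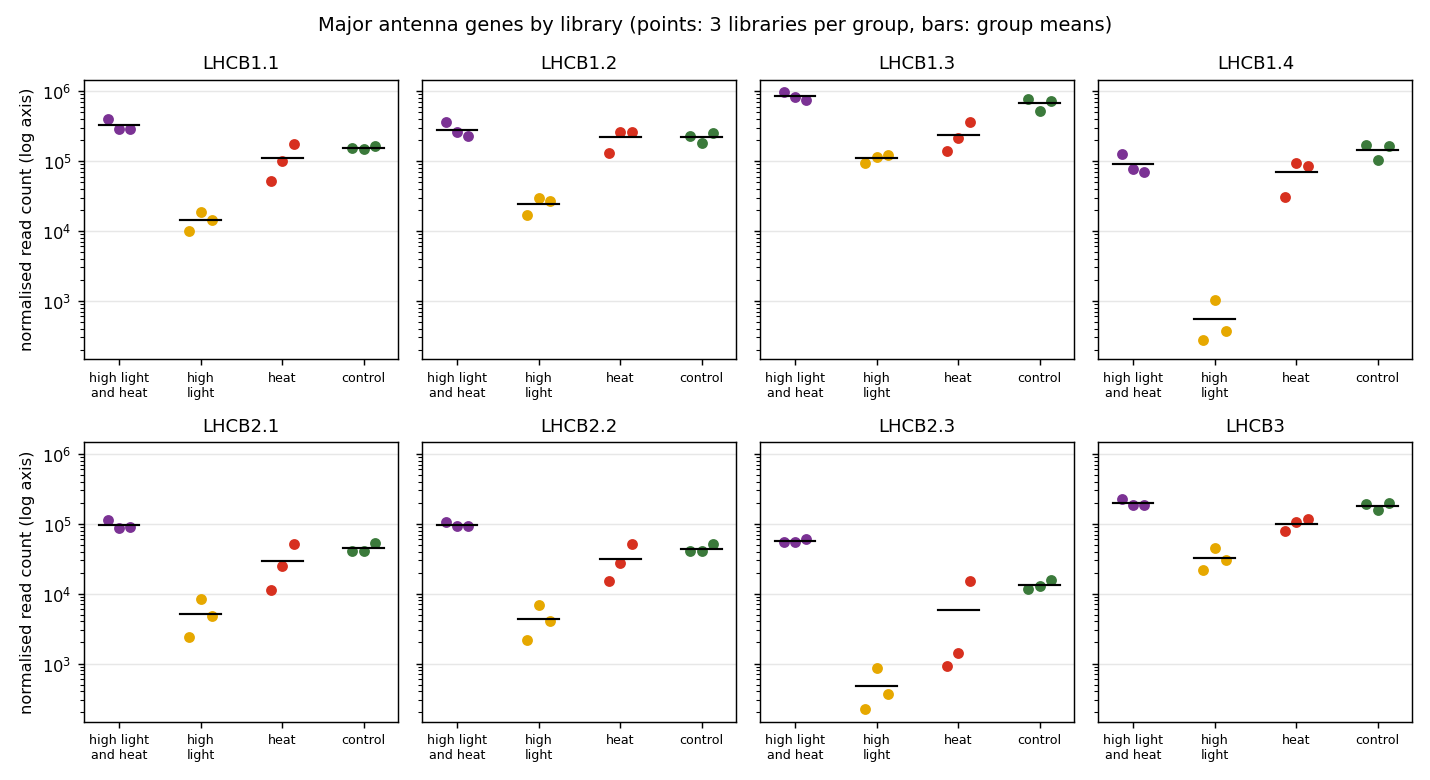
Normalised count of each of the 8 detected genes in every library, on a log axis, with the groups from the combination to control. Points are libraries. High light libraries lie below those of every other group for all 8 genes. For LHCB2.3 the heat libraries run from 935.6 to 14987.7.

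High light lowered the transcripts of all 8 detected antenna genes. LHCB1.4 stood at 271.6, 1017.1 and 372.8 normalised counts in high light, against 169003, 102717 and 166396 in control. LHCB2.3 had 223.1, 856.5 and 360.4 in high light, against 11563, 12705 and 15475 in control. These were the 2 deepest falls among the 8 genes, and every high light library lay far below every control library for both. On the log2 scale LHCB1.4 fell by 8.24 (SE 0.5002, 303-fold lower, limma adjusted p = 6.23e-07) and LHCB2.3 by 5.0 (SE 0.781, 32.0-fold lower, limma adjusted p = 0.000322).

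The other 6 genes fell less. LHCB1.1 had 10131.5, 18794.5 and 14586.4 in high light, against 155923, 148861 and 165024 in control. LHCB1.3, the most expressed copy, kept 92987, 112988 and 123880 in high light, against 781987, 517178 and 720523 in control. LHCB3 had 21624, 44922 and 30758 in high light, against 194582, 157679 and 195895 in control. High light and control libraries did not overlap for any of the 8 genes. Here and in the other comparisons, the share of all genes whose libraries did not overlap was not counted. The log2 change was -3.48 for LHCB1.1, -3.21 for LHCB1.2, -2.60 for LHCB1.3, -3.28 for LHCB2.1, -3.47 for LHCB2.2 and -2.55 for LHCB3, the shallowest. Thus 8 of 8 tested genes were lower, where 16.6% of all genes tested were lower and 18.1% higher at the same threshold (limma, adjusted p under 0.05).

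Summed over copies, LHCB1 was 7.999-fold lower in high light, at 149292 ± 25368 normalised counts against 1195217 ± 211011 in control (SD, n = 3 each, log2 change -2.9998, limma adjusted p = 0.000166). LHCB2 summed was 11.3-fold lower, at 10048 ± 5662 against 102073 ± 15160 in control (log2 change -3.50, limma adjusted p = 0.000135). In reads, the 9 genes took 0.666% ± 0.142 of the library in high light, against 5.30% in control. In high light the 4 guard cell markers summed to 1681.4 to 1809.1 normalised counts, against 1262.3 to 1500.7 in control. The 2 phloem markers summed to 2814.3 to 3034.3, against 3872.5 to 4655.6 in control. The 4 leaf mesophyll markers summed to 683586 to 862109, against 532381 to 690417 in control. The 3 epidermis markers summed to 11280.7 to 13828.9, against 13405.9 to 14489.6 in control. Their part in the result was not tested.

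**Figure D2:**
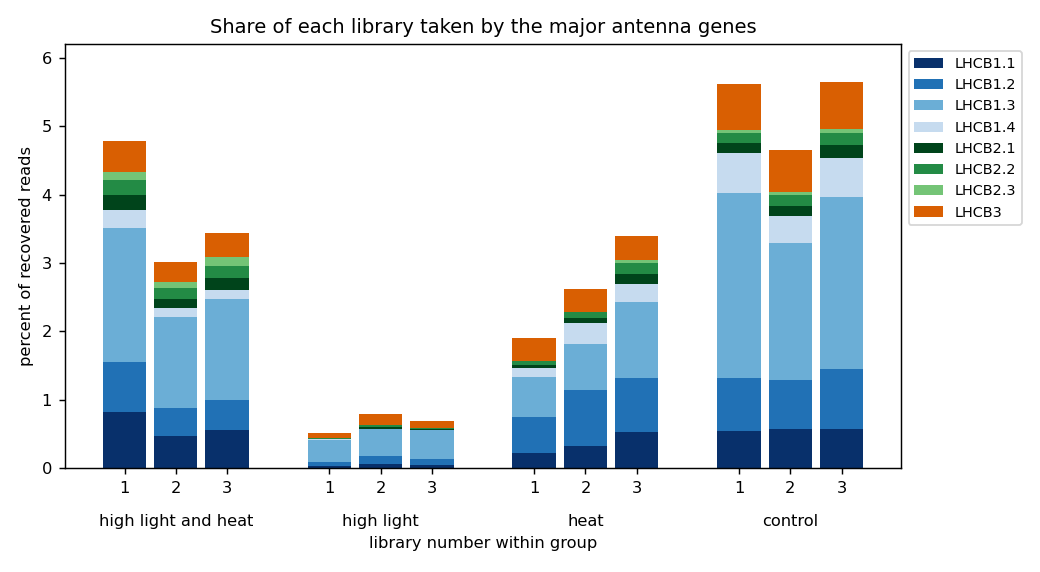
Percent of all recovered reads in each library taken by each antenna gene, stacked. Totals are 3.02% to 4.78% for the combination, 0.514% to 0.795% for high light, 1.90% to 3.39% for heat and 4.65% to 5.64% for control, and LHCB1.3 is the largest piece in the control and high light bars.

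Heat alone lowered 3 of the 8 genes at the threshold, and heat libraries differed widely from each other. LHCB1.3 had 139466, 213470 and 365153 normalised counts in heat, against 781987, 517178 and 720523 in control, with no overlap. LHCB3 had 78895, 106782 and 115380 in heat, against 194582, 157679 and 195895 in control, also with no overlap. LHCB2.3 had 935.6, 1430.9 and 14987.7 in heat, against 11563, 12705 and 15475 in control. For LHCB2.3, 2 heat libraries lay far below control and the remaining library within it. The log2 change was -1.58 for LHCB1.3 (limma adjusted p = 0.00451), -2.27 for LHCB2.3 (0.0284) and -0.88 for LHCB3 (0.0245). Of all genes tested, 24.8% were lower and 24.6% higher in heat.

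The remaining 5 genes did not pass in heat. LHCB1.4 had 30856, 94228 and 85853 in heat, against 169003, 102717 and 166396 in control, and although the libraries did not overlap the log2 change of -1.18 had a limma adjusted p of 0.0670. LHCB1.2 averaged 219137 ± 76904 in heat and 219347 ± 33208 in control, a log2 change of -0.06 (limma adjusted p = 0.896). LHCB1.1, LHCB2.1 and LHCB2.2 had log2 changes of -0.68, -0.86 and -0.66 with overlapping libraries. The LHCB1 sum changed by -0.99 (limma adjusted p = 0.0711) and the LHCB2 sum by -0.86 (0.159). Without heat library 3, which was the highest heat library for 7 of the 8 genes, 6 of 8 genes were lower, and without control library 1 or control library 3 only LHCB1.3 was. The LHCB2.3 call was lost without any 1 of 5 of the 6 libraries, its log2 change being -1.51 without heat library 1 and -3.51 without heat library 3, and with only heat and control libraries in the fit 0 of 8 genes passed (limma adjusted p = 0.0723 for LHCB1.3). In heat the 4 guard cell markers summed to 913.4 to 1194.7 normalised counts, against 1262.3 to 1500.7 in control. The 3 epidermis markers summed to 8618.5 to 10687.5, against 13405.9 to 14489.6 in control. The 4 leaf mesophyll markers summed to 370394 to 700393, against 532381 to 690417 in control. The 2 phloem markers summed to 1905.9 to 5016.0, against 3872.5 to 4655.6 in control. Their part in the result was not tested.

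High light and heat together left the antenna transcripts near or above control, unlike high light alone. LHCB2.3 reached 54745, 54099 and 61192 normalised counts in the combination, against 11563, 12705 and 15475 in control. LHCB2.2 had 106192, 92313 and 93167 in the combination, against 40652, 40218 and 50992 in control. LHCB1.1 had 402253, 286554 and 287996 in the combination, against 155923, 148861 and 165024 in control. The libraries of these 3 genes did not overlap, and all 3 were higher, by 2.11 (limma adjusted p = 0.0337), 1.15 (0.0337) and 1.04 (0.0331) on the log2 scale. LHCB2.1 was also above control in every library, at 112968, 86580 and 89725 in the combination against 41246, 40257 and 53110 in control, with a limma adjusted p of 0.0705.

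LHCB1.2, LHCB1.3, LHCB1.4 and LHCB3 overlapped control in the combination. LHCB1.3 had 962152, 816288 and 749776 in the combination, against 781987, 517178 and 720523 in control. LHCB1.4 had 127408, 76862 and 69267 in the combination, against 169003, 102717 and 166396 in control, the only gene of the 8 with a lower mean. Their log2 changes were 0.35 for LHCB1.2, 0.34 for LHCB1.3, -0.70 for LHCB1.4 and 0.12 for LHCB3, none past the threshold. Thus 3 of 8 genes were higher and 0 lower, where 29.8% of all genes tested were higher and 29.7% lower. LHCB2 summed averaged 250327 ± 21159 in the combination and 102073 ± 15160 in control (SD, n = 3 each, log2 change 1.301, limma adjusted p = 0.0344), and LHCB1 summed 1542810 ± 277039 and 1195217 ± 211011 (0.37, limma adjusted p = 0.472).

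These rises over control depended on the scaling and on single libraries. As a share of reads the 9 genes took 3.75% ± 0.919 in the combination and 5.30% ± 0.561 in control. With library totals as the scaling, 0 of the 8 genes were higher and 3 lower (LHCB1.3, LHCB1.4 and LHCB3), 1827 of all genes were higher and 12016 lower, against 5750 and 5726 with the deposited size factors, and the LHCB1 sum turned to -0.58. Leaving out any 1 of the 6 libraries left 0 or 1 gene higher, and the LHCB2 sum then did not pass (limma adjusted p from 0.0518 to 0.0857). Markers were summed only with the deposited size factors, whereas library totals moved the median of all genes by -0.95 on the log2 scale. In the combination the 4 guard cell markers summed to 368.7 to 543.6 normalised counts, against 1262.3 to 1500.7 in control. The 2 phloem markers summed to 1686.4 to 1909.6, against 3872.5 to 4655.6 in control. The 4 leaf mesophyll markers summed to 1081831 to 1259906, against 532381 to 690417 in control. The 3 epidermis markers summed to 7899.7 to 14831.5, against 13405.9 to 14489.6 in control. Their part in the result was not tested.

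**Figure D3:**
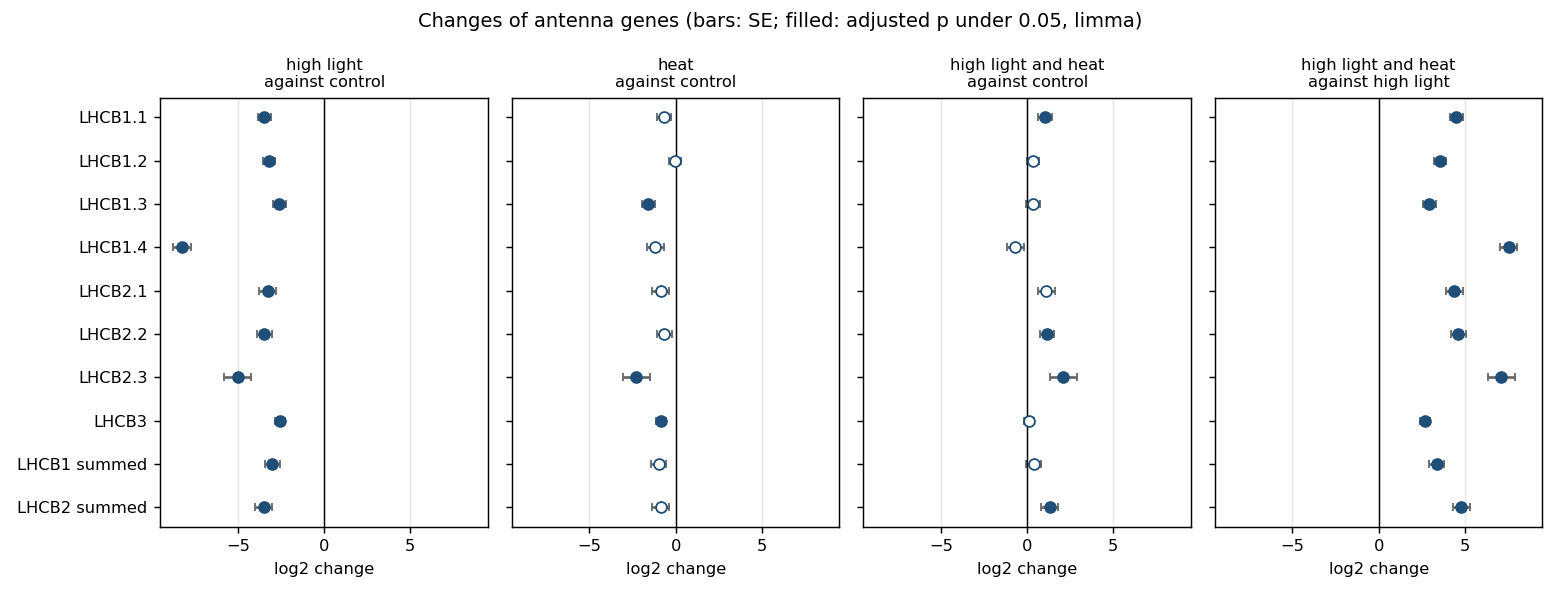
Log2 change with its standard error for the 8 detected genes and both sums in 4 comparisons, filled where the limma adjusted p is under 0.05. All genes lie below 0 in high light against control, and LHCB1.4 and LHCB2.3 lie farthest from 0 in the combination against high light.

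Set against high light alone, the combination had higher transcripts of all 8 genes, with no overlap of libraries for any of them. LHCB1.4 was 187-fold higher (log2 change 7.55, limma adjusted p = 9.27e-07) and LHCB2.3 138-fold higher (7.11, 1.50e-05). LHCB3 was the least changed, 6.35-fold higher (2.67, 1.43e-05). The LHCB1 sum was 10.3-fold higher and the LHCB2 sum 27.9-fold higher. Of all genes tested, 28.1% were higher and 29.3% lower in this comparison. With library totals all 8 genes remained higher.

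Set against heat alone, the combination had higher transcripts of 6 of the 8 genes, where 27.9% of all genes tested were higher and 27% lower. LHCB2.3 changed the most, 20.8-fold higher (log2 change 4.38, limma adjusted p = 0.000589), with a log2 change of 3.61 without heat library 1 and 5.61 without heat library 3. LHCB1.1, LHCB1.3, LHCB2.1 and LHCB2.2 were 3.29- to 3.90-fold higher and LHCB3 1.99-fold higher. With library totals 5 of 8 genes were higher, and LHCB3 did not pass (log2 change 0.12). LHCB1.2 and LHCB1.4 overlapped the heat libraries, with log2 changes of 0.41 and 0.48 that did not pass. The LHCB2 sum was 4.47-fold higher (limma adjusted p = 0.00254). The LHCB1 sum was 2.56-fold higher (limma adjusted p = 0.0169), a call that was lost with library totals (log2 change 0.49) and without combination library 1 (limma adjusted p = 0.0798).

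High light set against heat gave lower levels of all 8 genes, where 24.5% of all genes tested were lower and 24.9% higher. LHCB1.4 was 134-fold lower in high light than in heat (log2 change -7.07, limma adjusted p = 1.97e-06) and LHCB1.2 8.84-fold lower. LHCB1.3 was closest, 2.03-fold lower (-1.02, limma adjusted p = 0.0411), and it did not pass without any 1 of 5 of the 6 libraries or with the replicate number as a block (adjusted p = 0.0528), which left 7 of 8 genes lower. As a share of reads, control stood above the combination for LHCB1.2 (0.786% and 0.534%), LHCB1.3 (2.41% and 1.58%) and LHCB3 (0.656% and 0.372%). By the same share, heat stood above the combination for LHCB1.2 (0.722%) and for LHCB1.4 (0.228%, against 0.173% in the combination). With the deposited size factors the order of group means was combination, control, heat and high light for 7 of the 8 genes. For LHCB1.4 it was control, combination, heat and high light. For LHCB1.2, LHCB1.4 and LHCB2.1 no neighbours in that order above high light passed the test against each other, whereas for LHCB1.3, LHCB2.3 and LHCB3 heat stood below control, and for LHCB1.1, LHCB2.2 and LHCB2.3 the combination stood above it, with the limits given above for these calls.

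The interaction asks whether heat changed a gene differently with high light than without high light, and it was positive for all 8 genes. It is the log2 change of the combination against high light minus that of heat against control. It was 9.38 (SE 1.11) for LHCB2.3 and 8.72 (SE 0.707) for LHCB1.4, and 3.54 (SE 0.412) for LHCB3, the smallest. The LHCB2.3 value was 8.61 without heat library 1 and 10.61 without heat library 3. The LHCB1 sum had 4.36 (SE 0.604) and the LHCB2 sum 5.66 (SE 0.686). All 8 genes and both sums passed (limma adjusted p from 1.05e-05 to 0.000160), where 23% of all genes tested had a positive and 23.2% a negative interaction past the threshold.

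The copies of each family did not move in proportion, which is described here without a test. LHCB1.4 made up 5.80% ± 0.922 of LHCB1 reads in the combination, 0.359% ± 0.231 in high light, 10.8% ± 2.82 in heat and 12.1% ± 1.13 in control. LHCB1.3 made up 54.9% in the combination, 73.97% in high light, 37.4% in heat and 56.1% in control. LHCB1.2 made up 18.2% in the combination, 16.1% in high light, 35.2% in heat and 18.4% in control. High light leaves thus held mostly LHCB1.3 among the LHCB1 reads, and heat leaves held LHCB1.2 and LHCB1.3 in close amounts. LHCB2.3 made up 22.8% ± 2.57 of LHCB2 reads in the combination, 4.61% ± 0.713 in high light, 6.24% ± 5.56 in heat and 13.0% ± 0.633 in control. LHCB2.3 shared no window with another copy, so its own count rests least on how reads were split. Its share would still change if reads of LHCB2.1 and LHCB2.2 were dropped.

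**Figure D4:**
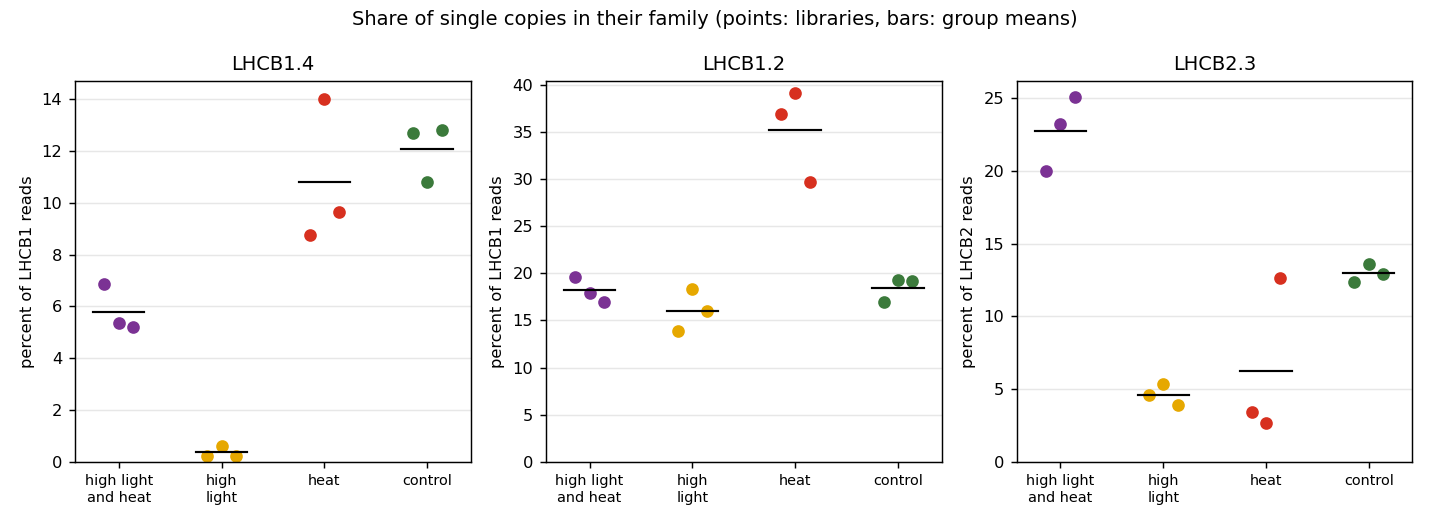
Share of LHCB1.4 and LHCB1.2 in LHCB1 reads and of LHCB2.3 in LHCB2 reads, in percent, by library. LHCB1.4 is under 1% in the 3 high light libraries, LHCB1.2 is highest in heat, and LHCB2.3 is highest in the combination.

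LHCB1.5 was listed at 0 in every library, which allows up to 3 reads per library for counting error alone. Its locus on chromosome 2 (14522524 to 14523568, minus strand, TAIR10.1) is covered over 100% of its length by the annotated opposite-strand gene AT2G08665, which was also at 0 in all 12 libraries. Among protein-coding loci that are fully covered on the other strand, 386 of 505 (76.4%) were at 0 in all libraries, against 2544 of 20688 (12.3%) of those with no such overlap. Whether its reads were set aside in counting was not tested, and the LHCB1 sum would then leave them out. Opposite-strand genes also overlap LHCB1.3 by 108 bases, LHCB3 by 186 bases and LHCB2.3 by 595 bases, and the strand of the libraries is not given in the sources used here. At their highest those 3 neighbours had 4329.9, 1331.7 and 1132.5 normalised counts.

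Other genes of the antenna were counted from 7 lists of 53 genes, of which 52 were tested. In high light against control, 4 of 6 minor antenna genes were lower and 2 higher, with a median log2 change of -1.95, beside -3.37 for the 8 major antenna genes and -0.03 for all genes tested. LHCB4.2, a minor antenna protein that links trimers to the core, was lower by 3.94 on the log2 scale in high light (limma adjusted p = 2.35e-06), and LHCB4.3, a relative, was higher by 3.86 (2.97e-05). Of 6 photosystem I antenna genes 4 were lower, led by LHCA4 (log2 change -2.79) and LHCA1 (-2.33). Of 11 photosystem II core and oxygen-evolving subunits 10 were lower, with PSBQ2 at -2.49 and PSBW at -1.63. Of all genes tested, 16.6% were lower and 18.1% higher in high light against control. In the combination against control, 2 minor antenna genes, 2 photosystem I antenna genes and 5 photosystem II subunits were higher with the deposited size factors. Of the 3 lists' genes 0 were lower. Of all genes tested, 29.8% were higher and 29.7% lower, so 2 of 6 genes higher is near the share of all genes. Among the higher genes of the 3 lists were LHCB4.3 (log2 change 2.95), LHCB7 (2.18), PSBO2 (1.22), PSBY (1.00), LHCA6 (0.74) and LHCA5 (0.65). The LHCA6 and LHCA5 calls were each lost without 2 of the 6 libraries. Both changes turned negative with library totals (-0.22 and -0.30). With that scaling 2 minor antenna genes were higher and 3 lower. The counts were 0 and 2 for the photosystem I antenna, and 0 and 6 for the photosystem II subunits. Of all genes tested, 1827 were then higher and 12016 lower.

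Genes that act on the antenna proteins changed less uniformly. CPSRP43, which carries antenna proteins to the thylakoid, was lower in high light (log2 change -0.80), and the other 4 of 5 targeting genes did not pass. LTD, another targeting protein, was higher in the combination against control (0.57), a call lost without 4 of the 6 libraries. PSBS, the sensor for quenching excess energy, was higher in high light (1.89) and in the combination (1.101), whereas STN7, the kinase that phosphorylates antenna proteins, was lower in high light (-0.83), a call lost without any 1 of 5 of the 6 libraries. STN8, a kinase of core proteins, was higher in the combination (1.00). STN7 was also higher in the combination (0.75 to 0.82 with a library left out), a call lost without 1 of the 6 libraries. With library totals the combination values of PSBS (0.15) and STN8 (0.047) did not pass. With that scaling 0 of the 5 genes of the list were higher and 2 lower, where 1827 of all genes tested were higher and 12016 lower. NYC1, a chlorophyll b reductase, was higher in high light (1.74). In the combination NYC1 was lower than in control (-1.48 to -0.90 with a library left out), averaging 2243 normalised counts against 4745. Of the 6 genes listed for chlorophyll b and antenna breakdown, 2 were higher and 3 lower in the combination against control. Of all genes tested, 29.8% were higher and 29.7% lower. With library totals 1 of the 6 was higher and 4 lower. In the combination SGR1, which acts in chlorophyll breakdown, was higher (1.51) and its relative SGR2 lower (-1.78). SGR2 averaged only 7.35 normalised counts in the combination and 27.6 in control. A single read in a combination library equals 1.65 to 1.87 normalised counts, so the SGR2 change rests on few reads. CAO (AT1G44446), the enzyme that makes chlorophyll b, was lower in high light (-1.79) and showed a log2 change of 0.05 in the combination against control that did not pass.

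Regulators of antenna genes were followed in the same way. GLK1 and GLK2 are transcription factors that activate antenna genes. GLK1 had 8569, 10501 and 9247 normalised counts in the combination and 1931, 3103 and 2042 in high light, against 5141, 4361 and 4407 in control. GLK2 had 7683, 7916 and 9521 in the combination and 593, 1624 and 872 in high light, against 1951, 2747 and 3093 in control. GLK1 was lower in high light (log2 change -1.004) and higher in the combination (1.02), and GLK2 was lower (-1.43) and higher (1.71). With library totals the GLK1 value in the combination was 0.07 and did not pass. Neither passed in heat against control.

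CCA1 and LHY, clock proteins of the morning of which CCA1 binds an antenna promoter element, were the most changed of the list in the combination. CCA1 had 7495, 11740 and 11947 normalised counts in the combination, 53.2, 242 and 83.2 in high light and 507, 1734 and 4625 in heat, against 135, 354 and 247 in control. The combination libraries lay above all others, with log2 changes of 5.47 for CCA1 (limma adjusted p = 3.55e-05) and 5.10 for LHY (0.000746) against control. In high light against control neither passed. HYH, a relative of the light-signalling factor HY5, was higher in high light (4.22) and in the combination (4.03), and CGA1, a GATA factor of chloroplast development, was higher in high light (3.03). Of 13 tested regulators 10 were higher and 2 lower in the combination, where 29.8% of all genes tested were higher and 29.7% lower. In high light 4 were higher and 3 lower, where 18.1% of all genes tested were higher and 16.6% lower. With library totals 6 were higher and 3 lower in the combination, where 1827 of all genes tested were higher and 12016 lower. The hour of sampling is not given in the sources used here.

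**Figure D5:**
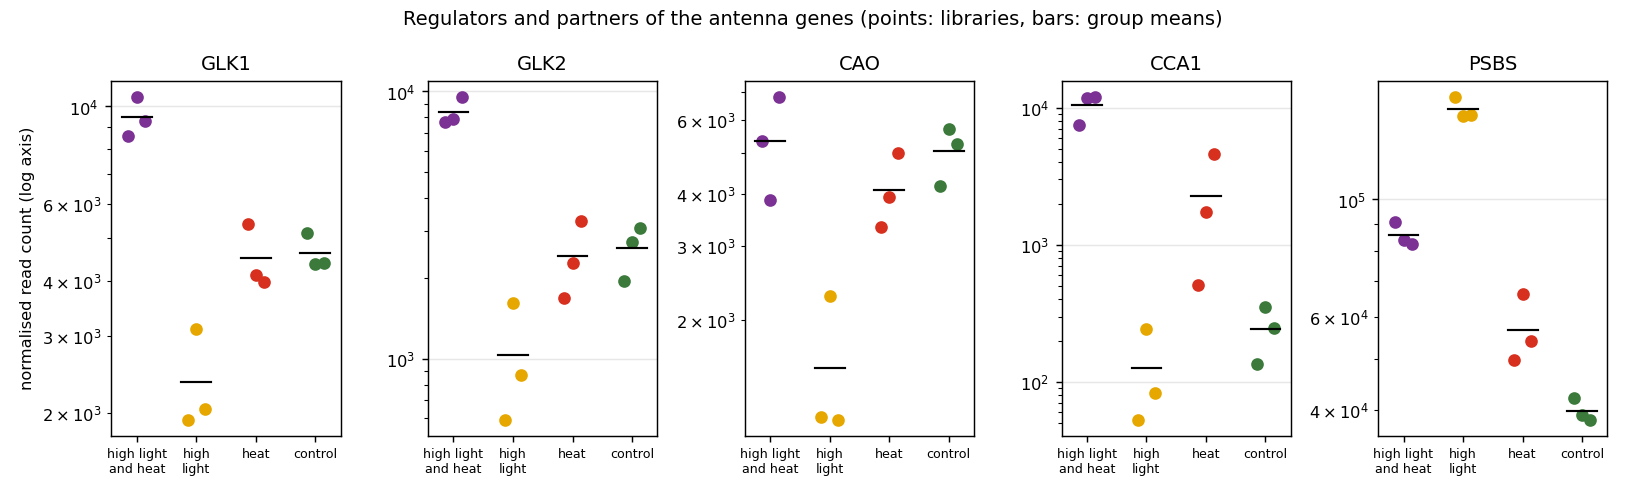
Normalised counts of GLK1, GLK2, CAO, CCA1 and PSBS by library, on a log axis. GLK1, GLK2 and CAO are lowest in high light, CCA1 is highest in the combination, and PSBS is highest in high light.

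The genes most like the antenna sum were sought among 16681 other genes by Pearson's r of log2 levels over the 12 libraries, as a description. They were LHCB6, a minor antenna gene (r = 0.988), PSAD-2, a subunit of photosystem I (0.985), LHCB4.1, a minor antenna gene (0.980), PSBP-1, an oxygen-evolving subunit (0.979), and AT4G18740 (0.979). The 12 points share libraries and size factors, and 4 groups make up most of the spread. LHCB6 averaged 103870 normalised counts in the combination, 16802 in high light, 59353 in heat and 92382 in control.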

How the data were processed

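Per the labels' protocols, total leaf RNA was isolated, and libraries were made after poly(A) enrichment. Per the submitters' processing notes, FastQC 0.11.7, STAR 2.4.0.1 and DESeq2 1.20.0 were used with build TAIR10. The counter, the annotation release and the strand are not given in the sources used here. The deposited signal values are the authors' normalised counts. In each library, 100% of non-zero values were whole multiples (within 0.001) of its lowest step, which was taken as 1 read. The implied size factors equal recomputed medians of ratios.

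Genes with a mean of at least 10 over 12 libraries (19309 of 32833 loci) were tested on log2(normalised count + 1) with limma 3.58.1 (limma-trend, R 4.3.3). All libraries entered with 1 mean per group. Tests were two-sided, adjusted by Benjamini-Hochberg within each comparison, threshold 0.05. Fold changes are on that scale and understate the change of low genes. For the sums, 1 row replaced the copies in the whole table. The script was tested on simulated data. Recovered reads were also tested with edgeR 4.0.16 and with DESeq2 1.42.0. Further alternatives changed the pseudocount (0.5 or 10), the filter (none, or a mean of 50), the scaling (TMM, upper quartile or library totals), the samples (only the groups compared, or 1 library left out) and the design (a replicate block).

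The members and lists were chosen with earlier results of these data known. The text names the 9 genes and their sums, GLK1, GLK2 and CAO. From each list it names the 2 largest changes past the threshold in high light and in the combination against control. It also names the 5 genes most like the antenna sum (mean of at least 50). Coding lengths and sequences come from the TAIR10.1 genome and RefSeq annotation by locus, in place of reference proteins. As a check of pairing, deviations from the group means of same-number libraries were correlated. All 3 pairs passed r 0.1 for high light with control (0.157 to 0.307) and high light with heat (0.147 to 0.152). In all, 7 of 18 pairs were over 0.1, and heat with control gave 0.001 to 0.068. Libraries of unlike number were not correlated, so the check cannot show that the numbers pair any groups. The main fit had no replicate block. Python 3.11.15 and matplotlib 3.10.9 made the figures.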

Additional observations from a re-analysis of the deposited data

Results flagged for a closer look

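The effect of heat differed between leaves with and without high light for all 8 detected genes and both sums, by the interaction term of the limma fit. On the log2 scale it was 5.20 for LHCB1.1, 3.62 for LHCB1.2, 4.52 for LHCB1.3 and 8.72 for LHCB1.4. It was 5.24 for LHCB2.1, 5.28 for LHCB2.2, 9.38 for LHCB2.3 and 3.54 for LHCB3. The LHCB1 sum had 4.36 and the LHCB2 sum 5.66. Each passed the same threshold under every alternative that gave it a p-value, and DESeq2 gave none for LHCB2.3.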

How the results depend on the processing

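The fall of all 8 genes and of both sums in high light, their higher levels in the combination than in high light, and the interaction kept their direction and passed under every alternative that gave a p-value. DESeq2 gave none for LHCB2.3 in any comparison, and so called at most 7 genes. In heat the LHCB1 sum (main value -0.99) passed with a mean of 50 as the filter (-0.99), upper-quartile scaling (-1.11), library totals (-1.07) and DESeq2 (-0.91), and lay between -1.28 and -0.61 with a library left out. The LHCB2 sum in heat lay between -1.40 and -0.34, and passed without heat library 3. Members lower in heat numbered 0 with only the groups compared, and 1 to 6 with a library left out. Against heat, the LHCB1 sum in the combination did not pass without the filter (1.36, adjusted p = 0.119), with library totals (0.49) or with only the groups compared (1.36, adjusted p = 0.283), and lay between 0.98 and 1.65 with a library left out.

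In the combination against control, the LHCB2 sum did not pass with upper-quartile scaling (1.11, adjusted p = 0.0529) or library totals (0.35), and lay between 1.23 and 1.42 with a library left out. Members higher numbered 1 with upper-quartile scaling, 0 with library totals, where 3 were lower, and 0 to 1 with a library left out. Signs turned for LHCB3 with upper-quartile scaling (-0.073), and with library totals for LHCB1.2 (-0.60), LHCB1.3 (-0.61), LHCB3 (-0.84) and the LHCB1 sum (-0.58). Against heat, library totals turned LHCB1.2 (-0.46) and LHCB1.4 (-0.39). Among small changes that did not pass, LHCB1.2 in heat turned without heat library 1 or control library 3 (range with a library left out -0.23 to 0.28), and LHCB1.4 in the combination against heat without heat library 1 (-0.034 to 0.77). The cause of these shifts was not tested.

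For the other named genes the same alternatives were applied after seeing the data. In the combination against control, CAO turned with TMM (-0.014), upper-quartile scaling (-0.13), library totals (-0.90) and without combination library 3 or control library 1 (-0.14 to 0.27). PSBQ2 turned with TMM (-0.031), upper-quartile scaling (-0.15), library totals (-0.92) and without control library 2 (-0.091 to 0.13). Library totals also turned LHCB4.2 (-0.38), LHCA4 (-0.74), LHCA5 (-0.30), LHCA6 (-0.22), LTD (-0.38) and STN7 (-0.16). STN8 in high light, which did not pass, turned without control library 1 (-0.19 to 0.043). LHCB2.3 in heat did not pass with edgeR (-1.20, adjusted p = 0.231).

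Library totals gave 1964 genes higher and 11758 lower in the combination against high light, 1578 and 11094 against heat, and 1813 and 8805 in the interaction. Against control, high light called 10384 genes with only the groups compared and 6701 in the fit of all groups. All 3 same-number pairs of high light with control and of high light with heat had r over 0.1, and no other pair of groups did throughout. With the replicate block, LHCB1.3 in high light against heat (-1.02, adjusted p = 0.0528), PSBY in high light and LTD in the combination no longer passed, and it changed no other call of the named genes. Depth limits the detected members little, since the lowest level was 223.1 normalised counts.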

Other observations

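Heat libraries differed among themselves in the antenna genes and in the morning clock genes LHY and CCA1. Heat library 1 was the lowest of the 3 for all 8 detected antenna genes, and heat library 3 the highest for 7 of them, with LHCB1.4 the exception. LHY had 55.0, 472 and 2709 normalised counts in heat libraries 1, 2 and 3, and CCA1 had 507, 1734 and 4625. HYH had 47.8, 71.9 and 213 in the same libraries. Other regulators went both ways in these libraries. GLK2 rose (1682, 2288 and 3281), whereas GLK1 (5406, 4135 and 3977) and PIF3 (1459, 1062 and 955) fell. Whether these genes vary together was not tested. The size factors of these libraries were 1.53, 1.11 and 1.05, and their part in the spread was not tested.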
